A study of Mus musculus with 4 samples.

Results

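Immediate early genes and the genes that feed back on growth signals were measured in C2C12, a line of mouse myoblasts able to divide or, when induced, to fuse into myotubes. The set holds 39 genes, listed by name from what is known of them and matched to the deposited count table by Ensembl identifier and symbol. All 39 were found among the 51826 genes listed, and all 39 passed the filter on low counts, among 15467 genes tested. In growth medium, the cells received for 6 h either vehicle or recombinant GDF10, which belongs to the TGF-beta family of secreted ligands. There were 2 RNA libraries per group, called biological replicates by the study's design text, and the labels name no genetic change in either group and call the cells muscle stem cells. The sources used here give neither the GDF10 dose nor the kind of vehicle.

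Immediate early genes are transcribed within minutes of a growth factor or stress signal, without new protein synthesis, because their promoters are bound in advance by factors such as SRF, TCF and CREB that kinases switch on. Many encode transcription factors (the AP-1 subunits of the FOS and JUN families, EGR, NR4A and KLF proteins), and others encode brakes that act on the signal itself, such as DUSP phosphatases and Sprouty proteins, or that destroy the short-lived transcripts, such as ZFP36 proteins. Most of these transcripts decay quickly once the signal ends. TGF-beta family receptors can also activate MAP kinases beside SMAD proteins, and AP-1 factors can act together with SMADs on shared genes.

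Total counts were 29641165 to 35597310 per library. Of the myoblast markers, Myod1, Myf5, Des, Itga7, Cdh15, Vcam1 and Ncam1 were detected in all 4 libraries, and Pax7 had 0 counts in each, which allows at most 0.0840 to 0.101 CPM, a library's counts scaled by its TMM-adjusted total. A protocol label names longissimus dorsi muscle where the others name C2C12 cells. Myh4, of fast muscle fibres, had 4, 0, 0 and 0 counts in vehicle 1, vehicle 2, GDF10 1 and GDF10 2, and the leukocyte gene Ptprc 2, 0, 0 and 0. Summed over 8 mature muscle markers the level was 73.8 and 78.4 CPM with vehicle and 85.1 and 84.0 CPM with GDF10, most of it Actn3; its part in the results was not tested. The sum over 6 leukocyte and blood markers was 7.20 to 8.81 CPM, and that over 6 endothelial and epithelial markers was 7.91 to 9.73 CPM. Most of the first was Hba-a1, with 149, 125, 183 and 164 counts in the same order, and Cd68, with 122, 88, 81 and 90. Most of the second was Krt14, with 281, 256, 229 and 319 counts. Their part in the results was not tested. The p-values below measure the spread between these 4 libraries only.

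No gene of the set passed the test of GDF10 against vehicle at 6 h. All 4 libraries were taken at that time, so they cannot show or exclude an earlier change that had ended by then. With edgeR's quasi-likelihood test, 0 of 39 passed a Benjamini-Hochberg adjusted p of 0.05, against 0.162% of all genes tested. DESeq2 and limma-voom called 0 as well. The smallest adjusted p in the set with edgeR was 0.815, for Jund. In bulk RNA such as this, fewer expressing cells and less RNA per cell cannot be told apart. An unadjusted p under 0.05 was reached by 1 gene with edgeR, again Jund, which was higher with GDF10. Over all genes tested 5.94% reached that level, 2.44% higher and 3.49% lower. DESeq2 and limma-voom also gave 1 such gene each, Jund. The median log2 fold change over the 39 genes was 0.0068, beside 0.0029 over all genes tested. The set had 22 positive and 17 negative values, from −0.50 for Fosb to 0.28 for Zfp36l1.

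The width of the intervals differed among the genes. For 30 of the 39, or 76.9%, the 95% interval of the fold change lay inside 1.5-fold in both directions, against 60.9% of all genes tested. These shares were not compared between genes of like level. The coefficient of variation that edgeR's trend gave for each gene's level had a median of 11.8% in the set, against 13.9% over all genes tested. The part of level in the shares was not tested. Egr1, a zinc-finger factor that is a common readout of ERK signalling, had counts of 7221 and 5733 with vehicle, against 6263 and 6987 with GDF10. Its log2 fold change was 0.05, with an interval of −0.12 to 0.22. Mcl1, a short-lived survival protein of the BCL2 family, had one of 0.0038 (interval −0.16 to 0.17). Ier2, an immediate early nuclear protein gene, had one of −0.0021 (interval −0.20 to 0.19). It stood at 56.3 and 58.4 CPM with vehicle and 57.7 and 56.8 with GDF10. These intervals leave out changes of 1.5-fold either way for those 3 genes at 6 h, and say nothing of earlier times. The 9 genes whose intervals went past that bound were Fosb, Atf3, Egr2, Nr4a2, Nr4a3, Klf2, Dusp2, Zfp36l1 and Ptgs2. The intervals of Klf2, Dusp2 and Zfp36l1 passed it on the higher side and that of Ptgs2 on the lower side, while those of the other 5 passed it on both.

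**Figure D1:**
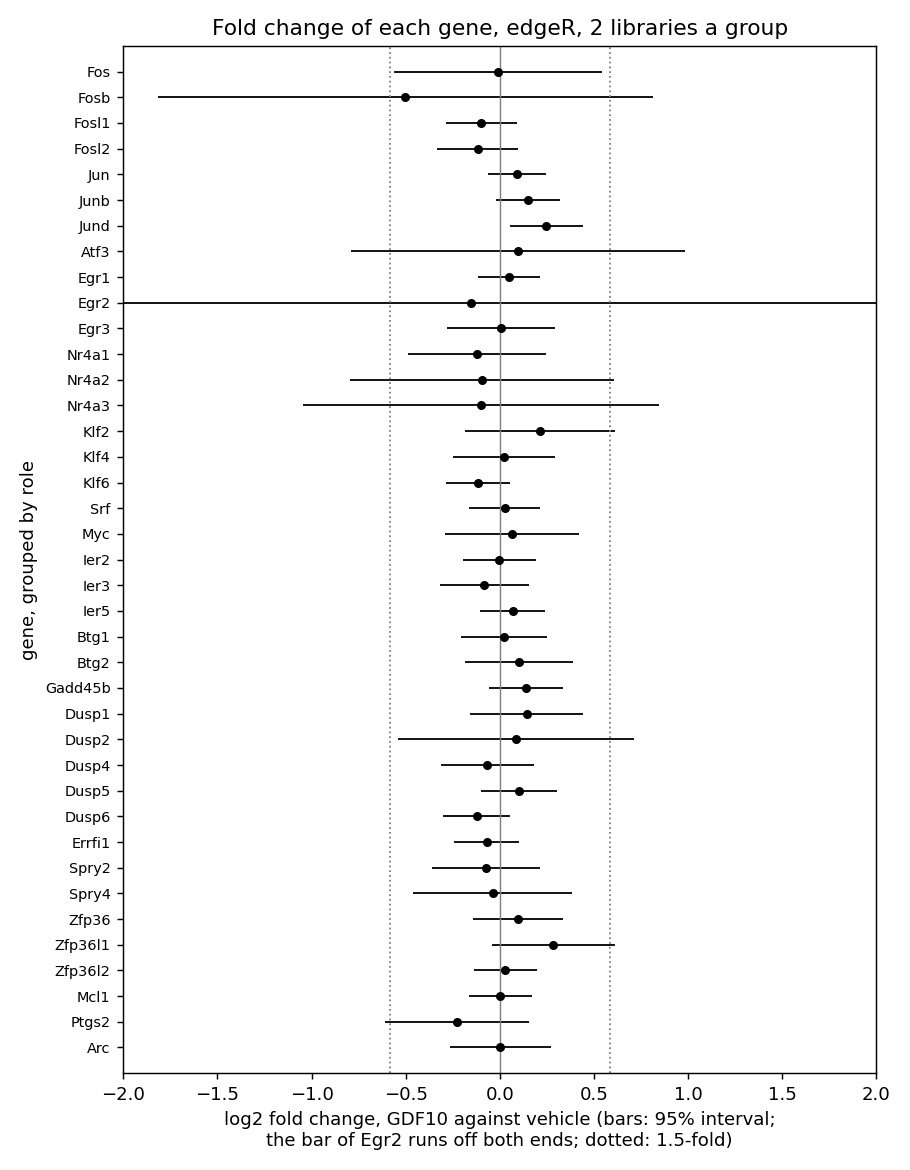
Log2 fold change of each of the 39 genes, GDF10 against vehicle (x axis), from edgeR's fit with 2 libraries a group; points are estimates, bars 95% intervals, and dotted lines mark 1.5-fold. The estimates lie between −0.50 and 0.28, 30 intervals stay inside the dotted lines, and the Jund interval, from 0.05 to 0.44, is the 1 that leaves out 0.

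Levels between genes are given per kilobase of exon (RPKM), averaged over the 4 libraries. Jun, the main AP-1 partner of FOS proteins, stood first at 282 RPKM, followed by Zfp36l2 at 109 and Fosl1 at 109. The lowest were Nr4a3 at 0.104, Fosb at 0.233 and Atf3 at 0.912 RPKM. In all, 3 genes lay at 100 RPKM or more, 19 between 10 and 100, 14 between 1 and 10 and 3 below 1. Of the 38 pairs of neighbours in this order, 9 did not overlap over the 4 libraries. Those steps lay below Jun, Fosl1, Ier5, Dusp6, Spry2, Arc, Klf2, Atf3 and Fosb. Zfp36l2 and Fosl1, and Srf, Egr1 and Btg1 in a row, could not be ordered beyond their spread.

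**Figure D2:**
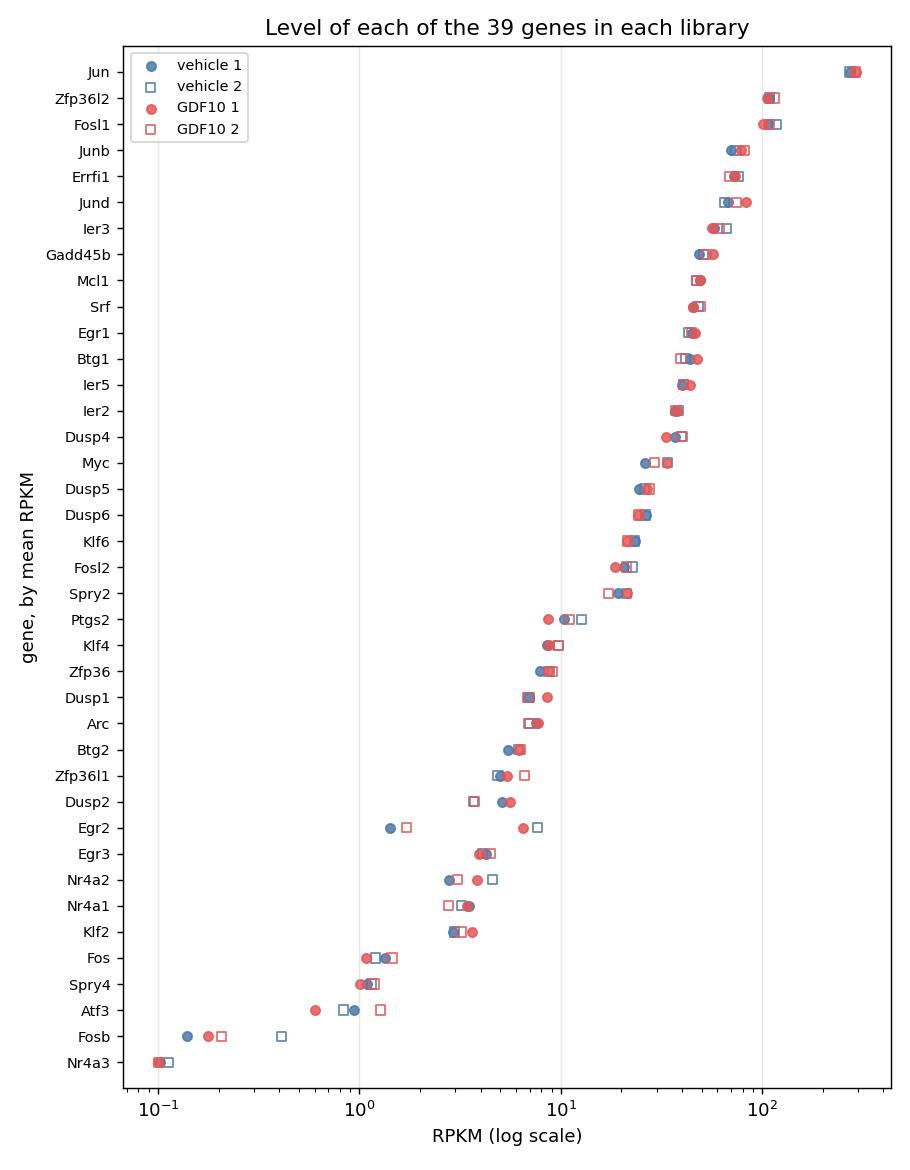
Level of each of the 39 genes in each of the 4 libraries, in RPKM on a log scale (x axis), with genes ordered by their mean; filled circles are replicate 1 and open squares replicate 2, blue for vehicle and red for GDF10. Jun stands apart at 273 to 291 RPKM, Nr4a3 is lowest at 0.100 to 0.113 RPKM, and for most genes the 4 symbols lie close together, with Egr2 spread from 1.42 to 7.68 RPKM.

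The FOS family was made up almost wholly of Fosl1 and Fosl2 transcripts. Fosl1, which encodes FRA-1 (ENSMUSG00000024912; mm10 chromosome 19, 5447547 to 5455946), had counts of 7793 and 7080 with vehicle, against 6162 and 7737 with GDF10. Per length that was 107 and 118 RPKM with vehicle and 101 and 109 RPKM with GDF10, or 82.7% to 83.6% of the summed FOS-family RPKM in the 4 libraries. Fosl2, which encodes FRA-2, made up 15.4% to 16.1%. Fos itself, the founding member and a classic serum-response gene, had counts of 113 and 84 with vehicle, against 76 and 119 with GDF10. That was 1.35, 1.21, 1.078 and 1.45 RPKM, and the groups overlapped. Its log2 fold change was −0.01, with an interval of −0.56 to 0.54. Fosb had 31, 76, 33 and 45 counts in vehicle 1, vehicle 2, GDF10 1 and GDF10 2, with vehicle 2 the highest. All 4 FOS-family genes had negative log2 fold changes, and the groups overlapped for each. The sign turned for Fos without vehicle replicate 1 (0.07) or GDF10 replicate 1 (0.18) and for Fosb without vehicle replicate 2 (0.46). Fosl1 shares 1163 of its 2033 exon bases with Ccdc85b on the opposite strand, which had 1486 to 2042 counts per library; its part in the Fosl1 level was not tested.

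All 3 JUN-family genes were higher in both GDF10 libraries than in both vehicle libraries, and none passed the test. Jun (mm10 chromosome 4, 95049034 to 95052222) stood at 869.7 and 870.3 CPM with vehicle and at 928.8 and 925.0 CPM with GDF10. The groups did not overlap, and the log2 difference was 0.09 (standard error 0.06, edgeR adjusted p = 0.845). Junb, often an antagonist of c-JUN, stood at 162 and 171 CPM and at 180 and 188 CPM (log2 fold change 0.15, standard error 0.07, edgeR adjusted p = 0.825). Jund, the constitutive member of the family (ENSMUSG00000071076; chromosome 8, 70698949 to 70700616), stood at 113 and 108 CPM with vehicle and 138 and 125 CPM with GDF10. Its group means were 110.8 ± 3.27 and 131.5 ± 9.75 CPM (SD, n = 2 per group), for which edgeR's fit gave a log2 difference of 0.25 (standard error 0.08; unadjusted p = 0.0191, adjusted p = 0.815). The unadjusted p was above 0.05 without vehicle replicate 1, without vehicle replicate 2 or without GDF10 replicate 1, with log2 fold changes of 0.28, 0.22 and 0.17. In such fits 1 group is a single library, assumed to vary like the other group. Both GDF10 values lay above both vehicle values in 9 genes of the set and below them in 3, or 30.8% in all, against 18.8% and 19.4% of all genes tested in the 2 directions and 38.2% in all. The 9 were Jun, Junb, Jund, Klf2, Ier5, Btg2, Gadd45b, Dusp5 and Zfp36l1, and the 3 were Nr4a3, Klf6 and Dusp6.

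**Figure D3:**
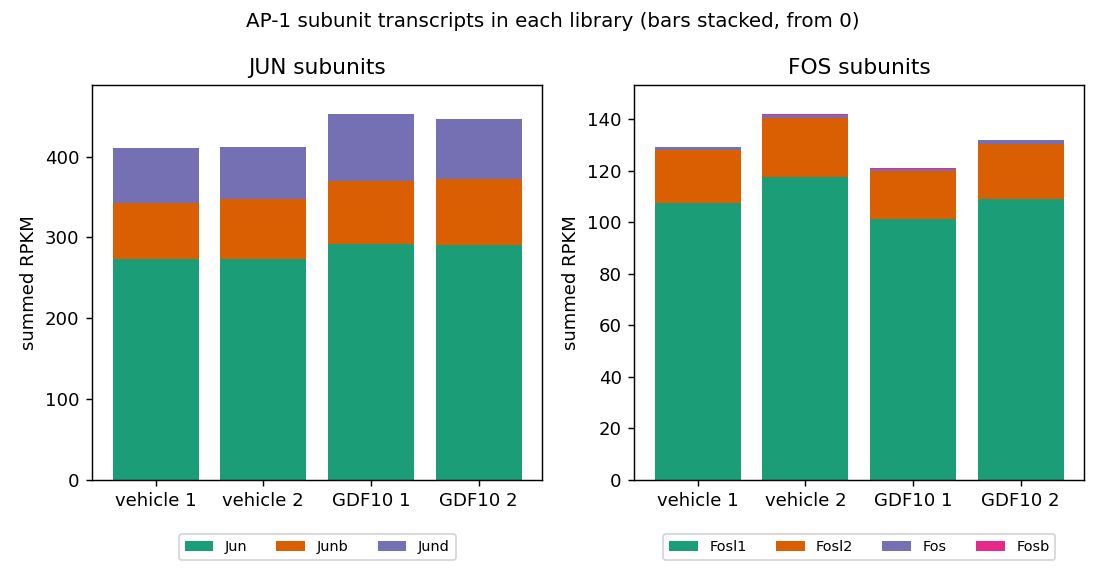
Summed RPKM (y axis, from 0) of the JUN-family genes on the left and the FOS-family genes on the right, stacked for each of the 4 libraries. Jun makes up 64.4% to 66.4% of the JUN bars and Fosl1 82.7% to 83.6% of the FOS bars, with Fos and Fosb hardly visible.

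The JUN genes are rich in G and C. The GC content of the longest transcript was 55.5% for Jun, 62.6% for Junb and 67.2% for Jund, beside a median of 49.7% over all genes tested. Spearman's rho of the log2 fold change was 0.26 against GC content and −0.26 against exon length over 15431 genes that share the same 4 libraries and are not independent. Over the 39 genes of the set it was 0.39 against GC content and −0.46 against exon length. The cause of these trends was not tested. With each library's trend with GC content removed, the log2 fold changes were 0.04 for Jun, 0.07 for Junb and 0.14 for Jund (standard errors 0.06, 0.08 and 0.08), and 0 genes of the set had an unadjusted p under 0.05 in limma. With the exon length trend removed they were 0.06, 0.10 and 0.18. Jun and Junb share 232 and 173 exon bases with Junos and Prdx2 on the opposite strand. Junos had 460 to 643 counts per library, and Prdx2 had 7664, 6060, 7482 and 7719 in the order vehicle 1, vehicle 2, GDF10 1 and GDF10 2, more than the 5770, 5049, 5403 and 6559 of Junb. Jund shares 877 of its 1668 exon bases with Gm11175 on the opposite strand. That gene had 16, 21, 22 and 24 counts in the same order, against 4041, 3211, 4148 and 4344 for Jund. The part of these overlaps in the levels of the JUN genes was not tested.

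**Figure D4:**
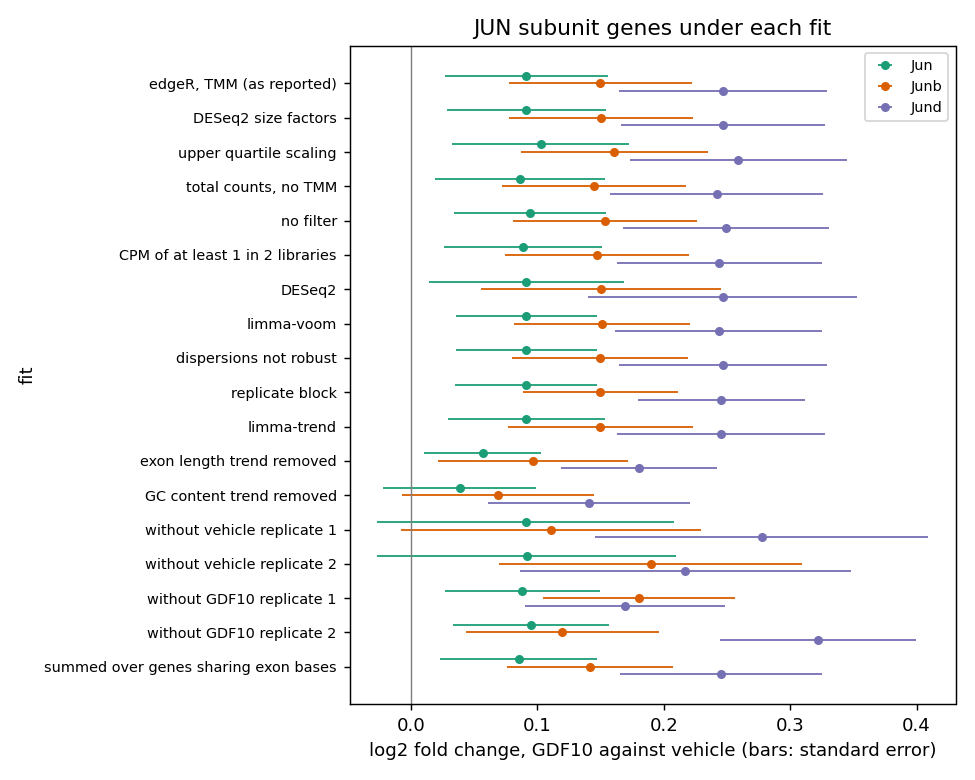
Log2 fold change of Jun, Junb and Jund (x axis), GDF10 against vehicle, under the reported fit and each alternative (y axis), with bars for the standard error. All values are above 0; those of Jund run from 0.14 with the GC content trend removed to 0.32 without GDF10 replicate 2.

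SRF and its targets are the best known route from growth factors to these genes. Srf itself stood at 131 and 139 CPM with vehicle and 131 and 143 with GDF10, with overlapping groups and a log2 fold change of 0.03 (interval −0.17 to 0.22). SRF binds the CArG box, and CREB binds the cAMP response element or CRE, whose letters are TGACGTCA. RefSeq promoter sequences were at hand for 30 of the 39 genes, on build GRCm38.p6, and the 250 bases before each start were searched on both strands. Egr1, Egr3, Ier2, Fosl1, Myc, Dusp4, Spry4, Zfp36l2 and Arc had no sequence and were not searched. A CArG box was found in 4 of the 30, or 13.3%, against 1.62% of 27025 genes with a promoter of that length, and the CRE in 3 of 30, against 1.77% of those genes. Egr2 has 5 listed starts and Errfi1 has 2, which gives them more bases to match. The AP-1 site, TGAGTCA or TGACTCA, was in 0 of 30 (5.16% of all genes) and the EGR site GCGTGGGCG in 0 of 30 (0.622%), which says only that these letters are not in this window. A match describes letters, not a bound site. For the CArG box and the CRE too, a searched gene without a match, such as Fos, lacks the letters in this window only. The sequences are given to show where the letters of the CArG box and the CRE lie, with the matched letters in capitals. They run 5′ to 3′ on the gene's strand, and only 30 bases are given where the window meets annotated exons:
Srf, chr17:46556215-46556244, - strand: CCATATAAGGagcggcctcgCCATAAAAGG
Dusp5, chr19:53529058-53529087, + strand: aatacCCATATTTGGCCTTATATGGgcact
Zfp36, chr7:28379267-28379296, - strand: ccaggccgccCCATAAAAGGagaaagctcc
Egr2, chr10:67537787-67537816, + strand: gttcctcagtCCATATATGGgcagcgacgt
Egr2, chr10:67537316-67537565, + strand: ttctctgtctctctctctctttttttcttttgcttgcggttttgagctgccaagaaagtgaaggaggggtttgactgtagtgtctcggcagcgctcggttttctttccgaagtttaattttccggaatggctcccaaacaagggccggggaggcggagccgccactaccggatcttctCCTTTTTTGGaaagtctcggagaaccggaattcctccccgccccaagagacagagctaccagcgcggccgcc
Btg2, chr1:134079156-134079405, - strand: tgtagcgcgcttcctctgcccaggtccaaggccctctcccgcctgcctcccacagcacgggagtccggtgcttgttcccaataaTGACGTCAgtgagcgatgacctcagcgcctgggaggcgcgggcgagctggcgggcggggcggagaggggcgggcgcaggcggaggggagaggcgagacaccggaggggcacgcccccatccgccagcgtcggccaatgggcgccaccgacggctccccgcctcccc
Dusp1, chr17:26508597-26508626, - strand: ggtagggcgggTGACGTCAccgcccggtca
Errfi1, chr4:150855008-150855037, + strand: gctgcgggcgtTGACGTCAcgttgtcgctc
Srf and Dusp5 each held a pair of CArG boxes, 20 bases apart start to start in Srf and directly adjoining in Dusp5. The Egr2 match of the shorter stretch, CCATATATGG, lies downstream of the longer stretch with CCTTTTTTGG, since the gene has several starts. None of the 7 genes with a match passed the test. Their log2 fold changes were 0.03 for Srf, 0.10 for Dusp5, 0.10 for Zfp36, −0.15 for Egr2, 0.10 for Btg2, 0.14 for Dusp1 (−0.017 without GDF10 replicate 1) and −0.07 for Errfi1.

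Among the EGR, NR4A and KLF factors, Egr2 varied most. Egr2, a zinc-finger factor known from Schwann cell myelination (ENSMUSG00000037868; chromosome 10, 67535475 to 67542188), had counts of 172 and 772 with vehicle against 658 and 203 with GDF10. That was 4.81 and 26.1 CPM with vehicle and 21.95 and 5.82 CPM with GDF10, a difference of 5.42-fold between the vehicle replicates and 3.77-fold between the GDF10 replicates. Vehicle 2 and GDF10 1 were thus high, vehicle 1 and GDF10 2 low, and the groups overlapped fully. The log2 fold change was −0.15, with an interval of −5.50 to 5.19. For Egr2 the coefficient of variation in edgeR's fit, the square root of the gene-wise dispersion, was 86.7%. The fit draws this value toward the trend for genes of its level, which gave 16.1%. The related genes did not share the pattern: Egr1 stood at 202, 194, 209 and 200 CPM and Egr3 at 18.8, 18.01, 17.2 and 19.8 CPM in the order vehicle 1, vehicle 2, GDF10 1 and GDF10 2. Of 9715 genes with a mean of at least 10 CPM, 3 had vehicle 2 and GDF10 1 both at least 3 times vehicle 1 and GDF10 2: Egr2, Tpbg and Usp49, a set picked out with these values in view. The cause was not tested.

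**Figure D5:**
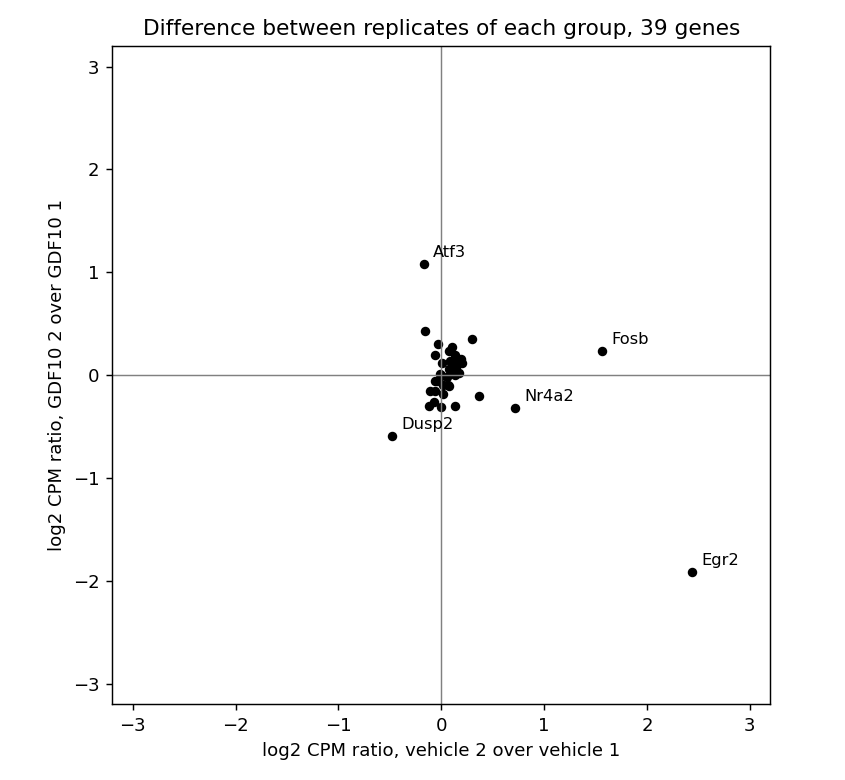
Log2 ratio of CPM between replicates for each of the 39 genes, vehicle 2 over vehicle 1 on the x axis and GDF10 2 over GDF10 1 on the y axis. Most genes lie near 0 on both axes, while Egr2 lies at 2.44 and −1.91, and Fosb at 1.57 on the x axis.

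The other genes of these families, like Egr2, did not pass. Nr4a1, an orphan nuclear receptor induced by calcium and growth signals, had 12.3, 11.3, 12.01 and 9.75 CPM (log2 fold change −0.12, interval −0.49 to 0.25). Nr4a2 had 11.3 and 18.6 CPM with vehicle and 15.5 and 12.4 with GDF10, so the vehicle libraries enclosed the GDF10 libraries. Nr4a3 had only 18 to 22 counts per library. Klf6, a widely expressed member of its family, had close replicates, at 102.1 and 101.8 CPM with vehicle and 94.0 and 94.2 with GDF10. Its groups did not overlap, and its log2 fold change of −0.12 had an interval of −0.29 to 0.05. Klf4, known as a pluripotency factor, had a log2 fold change of 0.02, and Klf2, of endothelial and lymphocyte quiescence, of 0.21 (interval −0.19 to 0.61). Atf3, a stress-induced AP-1 partner, had 72, 53, 39 and 96 counts in the same order, with the GDF10 libraries 2.12-fold apart.

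Myc, the growth regulator, stood at 71.4 and 92.4 CPM with vehicle and 91.7 and 79.6 with GDF10. Vehicle 1 was the low library and the groups overlapped (log2 fold change 0.06, interval −0.29 to 0.42). The stress and cell-cycle brakes Btg1, Btg2 and Gadd45b had log2 fold changes of 0.02 (−0.11 without GDF10 replicate 1), 0.10 and 0.14. Gadd45b, which is also known as a target of TGF-beta signals, stood at 77.3 and 81.6 CPM with vehicle and 90.6 and 84.4 with GDF10. Its groups did not overlap, and its interval ran from −0.05 to 0.33 (edgeR adjusted p = 0.834). Ier3, a short-lived regulator of survival, and Ier5, a heat shock factor cofactor, had log2 fold changes of −0.08 and 0.07.

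All 11 feedback genes were expressed in both groups, and 0 passed the test. The DUSP phosphatases remove phosphate from MAP kinases, DUSP4 and DUSP1 in the nucleus and DUSP6 from ERK in the cytoplasm. Dusp4 stood at 33.2 to 40.0 RPKM, Dusp5 at 24.5 to 27.6, Dusp6 at 24.2 to 26.6, Dusp1 at 6.88 to 8.52 and Dusp2 at 3.68 to 5.63 RPKM. Dusp6, whose transcript follows ERK activity closely, had 83.3 and 82.4 CPM with vehicle and 75.8 and 76.3 with GDF10. The replicates were close and the groups did not overlap (log2 fold change −0.12, interval −0.30 to 0.06, edgeR adjusted p = 0.843). With the exon length trend removed its log2 fold change was −0.16 in limma (unadjusted p = 0.0496, adjusted p = 0.828). Dusp5, a nuclear ERK phosphatase, was higher in both GDF10 libraries (60.5 and 64.6 CPM against 65.9 and 68.3, log2 fold change 0.10). Dusp1, induced by stress as well as growth factors, and Dusp2 had log2 fold changes of 0.14 and 0.09, with overlapping groups. Without GDF10 replicate 1 the Dusp1 value was −0.017.

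The 3 inhibitors of the set at the level of receptors and RAS had overlapping groups. Errfi1, which encodes the EGF receptor inhibitor MIG6, stood at 260 and 273 CPM with vehicle and 262 and 246 with GDF10. Spry2, which blocks RAS activation below receptor tyrosine kinases, stood at 40.3, 44.3, 44.3 and 36.1 CPM, and its relative Spry4 at 5.21, 5.47, 4.77 and 5.62 CPM. The log2 fold changes of these 3 genes were −0.07, −0.07 and −0.04.

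The ZFP36 proteins, the feedback arm on RNA, bind AU-rich elements and speed the decay of immediate early transcripts. Zfp36l2 made up 88.0% to 89.3% of the family's summed RPKM in the 4 libraries, and had 382 and 383 CPM with vehicle and 375 and 406 with GDF10 (estimate 0.03 on the log2 scale, interval −0.14 to 0.20). Zfp36, which encodes tristetraprolin, stood at 27.5 and 30.3 CPM with vehicle and 30.2 and 31.6 with GDF10. Zfp36l1 had the highest estimate of the set. It stood at 14.9 and 14.6 CPM with vehicle and 16.1 and 19.8 with GDF10 (estimate 0.28 on the log2 scale, interval −0.04 to 0.61, edgeR adjusted p = 0.825), and without GDF10 replicate 1 the estimate was 0.43 (adjusted p = 0.606). Zfp36l1 shares 1672 of 2990 exon bases with the antisense gene Gm26669, which had 5 to 10 counts per library. The part of this overlap in the Zfp36l1 level was not tested.

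Ptgs2, the inducible cyclooxygenase gene, had the lowest estimate of the set after Fosb. It stood at 47.3 and 58.1 CPM with vehicle and 39.6 and 50.5 with GDF10, so the groups overlapped, and its log2 fold change was −0.23 with an interval of −0.61 to 0.16. Arc, a synaptic plasticity gene with an SRF-driven enhancer, was detected here at 23.1, 21.4, 23.5 and 21.1 CPM, with overlapping groups and a log2 fold change of 0.0025.

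Other genes of the pathway were taken from 6 lists by role. Of 126 tested with edgeR, 0 passed in either direction, against 0.162% of all genes tested. At an unadjusted p under 0.05, 3 were higher and 3 lower, where 5.94% of all genes reached that level. DESeq2 called 1, Creb1, lower, and limma-voom 0. With a library left out, edgeR called 3 without vehicle replicate 2 (Creb1, Mapk14 and Noct), 3 without GDF10 replicate 1 (Atf1, Csrnp1 and Grb2), 1 without GDF10 replicate 2 (Tnfaip3) and 0 without vehicle replicate 1, when 44, 112, 224 and 27 of all genes were called. Apart from Creb1, each of these genes had 1 library away from the other 3, and that library alone stood for its group. Mapk14 stood at 98.9 CPM in vehicle 1 and at 31.4 to 32.3 CPM in the others, and Noct at 10.1 CPM in vehicle 1 and 25.4 to 27.9 CPM in the others. In GDF10 2, Grb2 stood at 105.5 CPM, Atf1 at 65.2 and Csrnp1 at 9.27 CPM, beside 54.6 to 55.8, 95.7 to 98.2 and 17.0 to 18.8 CPM elsewhere. Tnfaip3 stood at 24.6 CPM in GDF10 1 and 43.1 to 47.3 CPM in the others. These calls are thus no check on a difference between the groups. By list, 0 of 24 genes of the RAS, RAF, MEK and ERK cascade passed, 0 of 15 stress MAP kinase genes, 0 of 14 SRF and AP-1 cofactors, 0 of 38 other immediate early genes, 0 of 24 other feedback genes and 0 of 11 heat shock genes. The 2 genes of lowest p in each list had these log2 fold changes. They were −0.21 for Nf1 and 0.19 for Mapk3 in the cascade and −0.40 for Map3k5 and −0.17 for Map2k7 among stress kinases. Among other immediate early genes they were −0.42 for Homer1 and 0.20 for Cebpd, among feedback genes 0.14 for Pebp1 and −0.21 for Cbl, and among heat shock genes −0.23 for Hsp90aa1 and 0.22 for Hspb8. The AP-1 repressor gene Jdp2 had one of 0.22. Creb1, which encodes the factor that binds the CRE, had counts of 1590 and 920 with vehicle, against 380 and 474 with GDF10. The log2 difference was −1.52 (standard error 0.18), and the adjusted p was 0.0785 with edgeR, 5.64e-10 with DESeq2 and 0.194 with limma-voom. Over the other alternatives that kept all 4 libraries, the adjusted p ran from 0.0544 in edgeR with upper quartile scaling to 0.267 in limma with the exon length trend removed. The vehicle libraries of Creb1 were 1.43-fold apart, at 44.5 and 31.1 CPM. Its log2 difference was −1.24 without vehicle replicate 1 and −1.76 without vehicle replicate 2, when only the higher vehicle library was left. It was −1.48 without GDF10 replicate 1 and −1.58 without GDF10 replicate 2.

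Over the 39 genes, the coefficient of variation in edgeR's fit, the square root of the gene-wise dispersion, had a median of 10.9%. The trend for genes of the same levels gave 11.8%. The fit draws each gene's value toward that trend, so their closeness is partly built in. This fitted variation exceeded the trend in 7 of the 39 genes, and in 2922 of all 15467 genes tested. The median absolute log2 ratio between replicates was 0.089 in vehicle and 0.15 in GDF10, beside 0.12 and 0.15 over all genes tested. Summed over the 39 genes the level was 3975 and 4115 CPM with vehicle and 4123 and 4107 CPM with GDF10. Vehicle 1 held the lowest value of 15 genes and GDF10 1 that of 13, while the highest values fell to vehicle 2, GDF10 1 and GDF10 2 in 11, 12 and 13 genes.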

How the data were processed

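RNA was sequenced in 4 libraries, 2 with vehicle and 2 with GDF10. The authors deposited raw counts of reads, as whole numbers, for each Ensembl gene. The submitters' processing notes list HISAT2 2.0 and StringTie 1.3.3b with build mm10, and Trimmomatic 0.36, FastQC 0.11.2, DESeq2 1.12.4 and bedtools 2.26.0, in no stated role. How reads were counted, with which annotation and whether by strand, is not stated there. Reads in exon bases shared by overlapping or antisense genes may therefore have been counted for the wrong gene, or left out. This touches 7 of the 39 genes. GENCODE M21 gave symbols, positions and exon lengths for 51633 of 51826 identifiers. RPKM here is TMM-scaled CPM per kilobase of all annotated exons, so a long minor isoform lowers it.

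The main test was that of edgeR 4.0.16 in R 4.3.3 (filterByExpr, TMM, robust dispersions, glmQLFit and glmQLFTest, no covariates), and p-values were adjusted by the Benjamini-Hochberg method across the 15467 genes. A gene was called at an adjusted p of 0.05. Standard errors were derived from each estimate and its F value. DESeq2 1.42.0 and limma 3.58.1 were alternatives, and trends with GC content or exon length were removed by loess with a span of 0.3 on log2 CPM (prior count 2). Scripts were tested on simulated data. The members, lists and tests were chosen with earlier results of these data known. Per-library values are given for genes with an unadjusted p under 0.05, the 3 highest and 3 lowest per length, the most variable and at least 1 gene of each role; among other pathway genes the text names those called or the 2 of lowest p per list. Replicate numbers were not taken as pairs: the deviations of same-numbered libraries correlated at 0.070 over genes, with 2 pairs.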

Additional observations from a re-analysis of the deposited data

How the results depend on the processing

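None of the 39 genes was called under any of the 17 alternatives, in which the smallest adjusted p was 0.0970, for Jund without GDF10 replicate 2, and the median log2 fold change of the set ran from −0.026 to 0.031. Over all genes tested 25 were called, against 65 with DESeq2, 11 with limma-voom, 9 without robust dispersions, 27 to 224 with a library left out (44 without vehicle replicate 2, 112 without GDF10 replicate 1, 224 without GDF10 replicate 2) and 13 for counts summed over genes with common exon bases, a setting added once the data had been seen. The number of genes in the set with an unadjusted p under 0.05 was 1, against 3 with the replicate number as a block (Jund, Junb and Ptgs2), 2 with the exon length trend removed, 0 with the GC content trend removed and 0 to 5 with a library left out. The block gave 23 calls over all genes and changed no call in the set. The number of genes with separated groups was 12 and ran from 9 to 13. Of 662 values of single genes under alternatives, 55 changed sign, in 22 genes, and 49 of these had both values within 1 standard error of 0, so no direction is read from them. The others were in Atf3 (−0.55 to 0.53 with a library left out), Btg1 (−0.11 to 0.15), Dusp1 (−0.017 to 0.29), Fosb (−1.10 to 0.46) and Nr4a2 (−0.41 to 0.31); the causes were not tested. The sum of Dusp1 and its neighbour Ergic1 gave −0.12, but with 7939 to 10488 counts for Ergic1 against 681 to 845 for Dusp1 that is nearly all Ergic1 and shows no turn of Dusp1. With a library left out, the lone library of a group is assumed to vary like the other group. Counts of 18 to 22 for Nr4a3 and 31 to 76 for Fosb limit what these libraries can show for them.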
